A study of Mus musculus with 8 samples.

Results

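The uncoupling proteins Ucp1, Ucp2 and Ucp3 were followed in the brown adipose tissue of mice with and without the microRNA mir-193b. The 3 genes were taken by symbol from a table of 22552 genes, and all 3 were found. Brown adipose tissue is the heat-producing fat of mammals. The tissue came from mice aged 2 months on a mixed 129SV, FVB/N and C57BL/6 background. Wild-type mice (WT) were mmu-mir-193b +/+ and the mice called Null were mmu-mir-193b -/-. Per the series title, mir-365-1 is absent from them as well. Per the labels' protocols, the breeding started from miR-193b floxed parents with a Cre transgene under the MMTV promoter, and that transgene was bred out. The labels name 3 WT and 3 Null samples for mRNA-seq, and the authors deposited 1 FPKM value per gene and genotype (fragments scaled to transcript length and to the fragments mapped). These 2 columns are here named WT pool and Null pool. Neither SD nor n comes with them, so no difference between them has a replicate check, and no p-value is given.

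Uncoupling proteins are carriers of the inner mitochondrial membrane, members of the SLC25 family. Ucp1 encodes the protein that lets protons return to the matrix without passing ATP synthase, so that respiration in brown fat cells yields heat. Its activity is set by fatty acids, which activate it, and by purine nucleotides, which inhibit it. Transcription of Ucp1 is driven by noradrenaline through beta-adrenergic receptors and cAMP. Ucp2 is expressed in many tissues, immune cells among them. Ucp3 is best known from skeletal muscle and brown fat. The roles of Ucp2 and Ucp3 in metabolite transport and oxidative stress are less settled, and neither replaces Ucp1 in heat production.

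The deletion was visible in the small RNA data, which held 1 library per genotype. Its values are headed RPM (reads per library total). The mature strand miR-193b-3p was at 3705 RPM in the WT library and 11.5 RPM in the Null library. Its relative miR-193a-3p, made from another gene, was at 3857 RPM in WT against 4067 RPM in Null. miR-365-3p, which mir-365-2 also makes, was at 1442 RPM in WT against 798 RPM in Null. The sequences below, from RefSeq (GRCm38.p6), show which of these microRNAs share a seed, the bases 2 to 8 set in capitals. miR-193b-3p (chr16:13449570-13449591, plus strand) and miR-193a-3p (chr11:79712009-79712030, plus strand) share it, so a microRNA with the lost seed was still present in Null tissue.
mmu-miR-193b-3p: aACUGGCCcacaaagucccgcu
mmu-miR-193a-3p: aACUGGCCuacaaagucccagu
mmu-miR-365-3p: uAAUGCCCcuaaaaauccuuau

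The promoters of the 3 genes are shown next as background. Whether they bear on the levels of the genes was not tested. Each window holds the 250 bases before a RefSeq transcript start of the gene (GRCm38.p6). Both strands were searched for 7 motifs, and matches are in capitals. As TATA types, TATATA was searched and so was the variant TATAAA. The CCAAT box was searched by those letters, and the GC box was searched as GGGCGG. For the cAMP response element the partial motif TGACG was used. A single nuclear receptor unit was searched as AGGTCA, and the E box was searched as CACGTG. No match overlapped another in these windows.
Ucp1, chr8:83290098-83290347, plus strand: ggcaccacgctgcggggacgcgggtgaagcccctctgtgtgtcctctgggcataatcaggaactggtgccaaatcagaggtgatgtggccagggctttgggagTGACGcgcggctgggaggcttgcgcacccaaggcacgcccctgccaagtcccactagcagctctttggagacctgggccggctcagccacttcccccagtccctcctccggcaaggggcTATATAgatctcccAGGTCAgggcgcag
Ucp2, chr7:100493108-100493357, plus strand: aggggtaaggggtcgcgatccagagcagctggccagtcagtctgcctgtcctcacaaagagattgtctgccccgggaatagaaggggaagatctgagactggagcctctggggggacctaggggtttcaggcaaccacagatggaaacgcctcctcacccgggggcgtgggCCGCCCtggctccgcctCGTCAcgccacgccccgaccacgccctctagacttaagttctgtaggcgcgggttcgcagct
Ucp3, chr7:100472741-100472990, plus strand: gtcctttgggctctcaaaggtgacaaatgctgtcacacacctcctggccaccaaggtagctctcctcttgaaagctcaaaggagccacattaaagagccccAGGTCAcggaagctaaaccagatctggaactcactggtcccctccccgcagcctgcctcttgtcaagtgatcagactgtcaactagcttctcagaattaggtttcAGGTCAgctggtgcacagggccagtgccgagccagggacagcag

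Of the 3 windows, the Ucp1 promoter alone held a TATA type, TATATA from base -28 to base -23 relative to the start. That motif occurred in 5.25% of 32851 windows of the same length, and TATAAA, which none of the 3 held, in 12.4%. The Ucp2 promoter alone held a GC box, on the minus strand, and GGGCGG occurred in 32.7% of windows. The Ucp3 promoter held 2 copies of AGGTCA and the Ucp1 promoter 1 copy, against 14.0% of windows with a copy. The partial cAMP motif was in the Ucp1 window, and on the minus strand in the Ucp2 window, as in 17.8% of all windows. The CCAAT box (33.8% of windows) and the E box (6.02%) had no match in the 3 windows. CpG dinucleotides numbered 12 in the Ucp1 window, 16 in the Ucp2 window and 3 in the Ucp3 window, where the median over all windows was 6. GC content was 64.8% for Ucp1, 63.6% for Ucp2 and 54.8% for Ucp3, against a median of 52.4%. A match describes the letters in these windows and is not evidence of binding. The upstream enhancer of Ucp1 lies outside them.

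Ucp1 was by far the most abundant of the 3 mRNAs, and all 3 were lower in the Null pool. Ucp1 was at 3016 FPKM in the WT pool and 2487 FPKM in the Null pool. Ucp3 was at 73.1 FPKM in WT against 50.5 FPKM in Null. Ucp2 was at 24.7 FPKM in WT against 18.0 FPKM in Null. The order of the levels, Ucp1 above Ucp3 above Ucp2, was therefore the same in both pools, and in each gene the Null value was below the WT value. FPKM is scaled to transcript length, so the levels of the 3 genes can be set side by side within a pool.

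**Figure D1:**
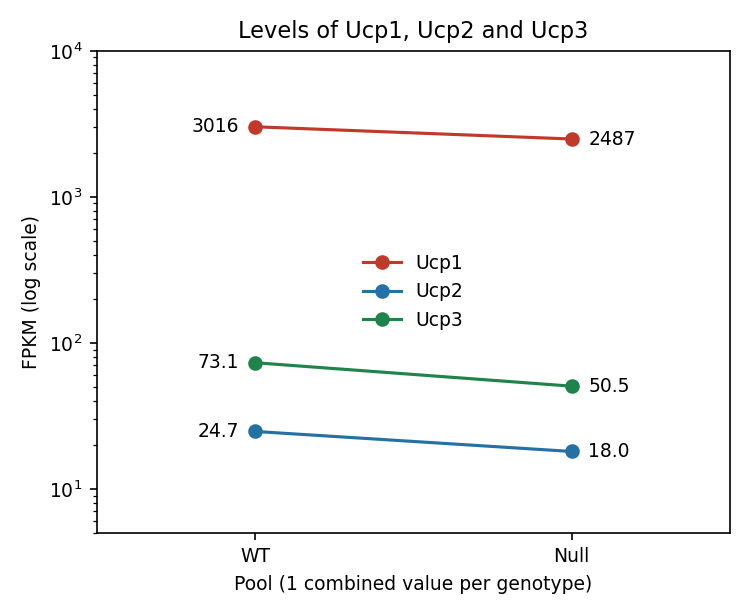
Level of each gene in FPKM (vertical axis, log scale) in the WT pool and the Null pool (horizontal axis). Each point is the authors' combined value of a genotype, with no error bar, and lines join the same gene. Ucp1 stands at 3016 and 2487 FPKM, far above Ucp3 and Ucp2, and each line slopes down towards Null.

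Ucp1 in the Null pool was at 82.4% of its WT level, Ucp2 at 72.9% and Ucp3 at 69.1%. As log2 of (Null + 1)/(WT + 1), the difference was -0.28 for Ucp1, -0.43 for Ucp2 and -0.52 for Ucp3. The pseudocount of 1 makes differences of low genes look smaller, which matters little at these levels. None of the 3 genes (0 of 3) reached a 1.5-fold difference. Over the 11597 genes averaging at least 1 FPKM, 6.75% were at least 1.5-fold lower in Null and 7.87% at least 1.5-fold higher. The median log2 ratio over those genes was 0.01, and 49.4% of them were lower in Null by any amount and 50.6% higher. A lower value in Null is therefore common in this table. Ratios below that of Ucp1 were found in 22.1% of the 11597 genes, below that of Ucp2 in 12.1%, and below that of Ucp3 in 8.43%.

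**Figure D2:**
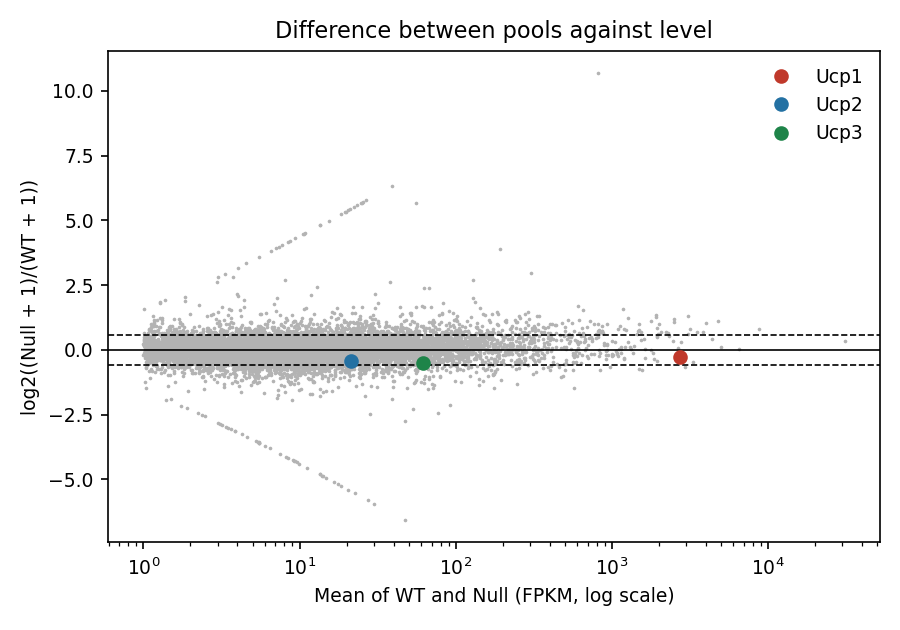
Difference between pools as log2((Null + 1)/(WT + 1)) (vertical axis) against mean FPKM (horizontal axis, log scale) for 11597 genes in grey, with the 3 uncoupling protein genes in colour. The solid line is the median of all genes, the dashed lines mark 1.5-fold, and the 2 oblique rows of points are genes listed at 0 in a pool. Ucp1, Ucp2 and Ucp3 lie between the median and the lower dashed line.

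The size of these differences depended on how the pools were put on a common scale. No setting turned a direction, though another pseudocount or equal column sums could not have turned it for genes already lower in Null. The FPKM columns sum to 508701 in WT and 590327 in Null. Scaled to the same sum, the log2 ratios were -0.49 for Ucp1, -0.64 for Ucp2 and -0.74 for Ucp3, so that Ucp2 and Ucp3 passed 1.5-fold. This scaling moved the median of all genes to -0.18. Relative to that median, the differences were -0.31 for Ucp1, -0.46 for Ucp2 and -0.55 for Ucp3. It also changed the counts at 1.5-fold from 913 higher and 783 lower to 469 higher and 1621 lower. With quantile normalization, which gives both pools the same distribution of values, Ucp1 was at -0.80, Ucp2 at -0.45 and Ucp3 at -0.62. In that setting Ucp1 and Ucp3 passed 1.5-fold.

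**Figure D3:**
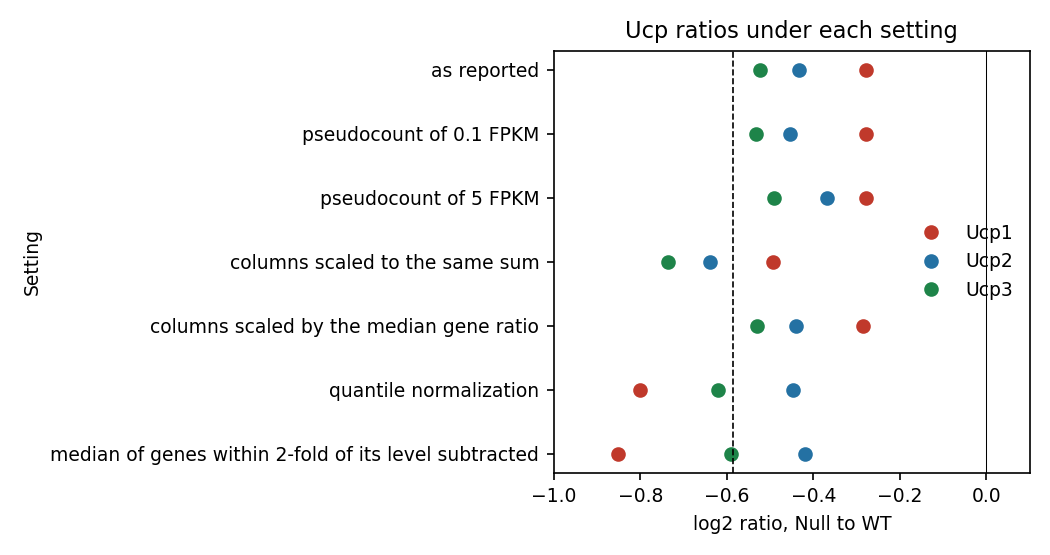
The log2 ratio of Null to WT (horizontal axis) for each gene under each setting (vertical axis). The dashed line marks 1.5-fold lower. All points lie below 0, and Ucp1 ranges from -0.28 as reported to -0.85 after subtracting the median of genes of like level.

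Ucp1 stood among the most abundant mRNAs of the tissue in both pools. It ranked 9 of 22552 genes in WT and 28 in Null, which placed it above 99.9% of genes in Null. Its neighbours in rank were the glycolytic enzyme gene Aldoa above it and the carbonic anhydrase gene Car3 below it in WT. In Null they were the small RNA gene Mir3064 and the apolipoprotein gene Apoc1. Ucp1 made up 0.593% of the summed FPKM in WT and 0.421% in Null. Ucp3 ranked 1051 in WT and 1609 in Null, and Ucp2 ranked 2922 in WT and 3818 in Null. All 3 genes had a lower place in the Null pool.

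**Figure D4:**
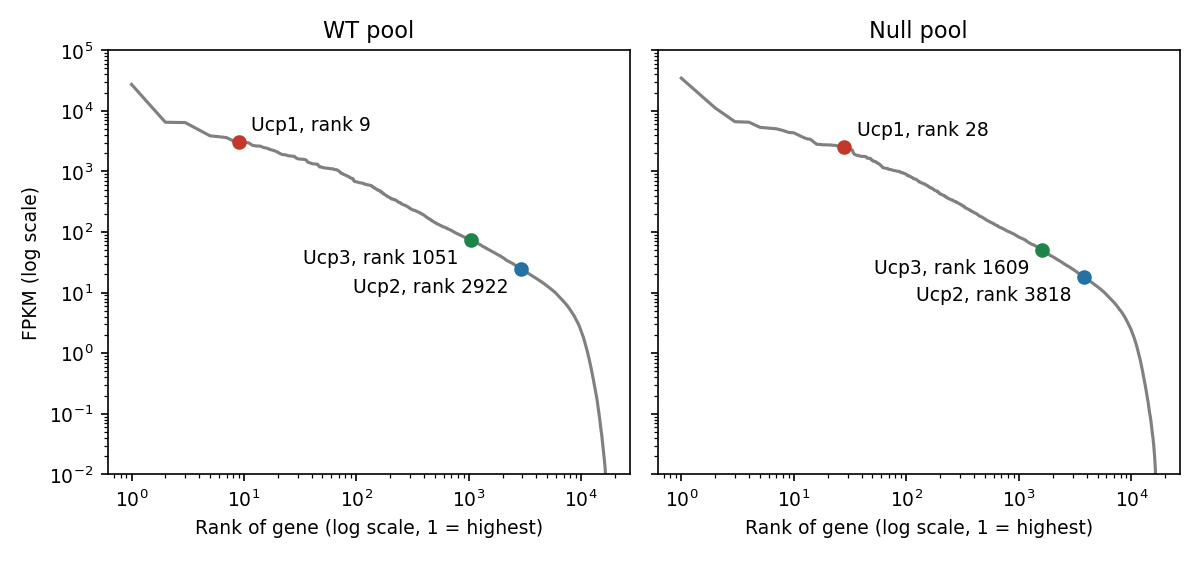
FPKM of every gene above 0 (vertical axis, log scale) against its rank (horizontal axis, log scale) in the WT pool on the left and the Null pool on the right, with the 3 uncoupling protein genes marked. Ucp1 lies at the upper end of both curves, at rank 9 and rank 28, while Ucp3 and Ucp2 lie further down, still above 92.9% and 83.1% of genes in Null.

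Some genes changed places with Ucp1 in rank between the pools. In Null 20 genes stood above Ucp1 that were below it in WT. Of them, 11 had symbols of respiratory chain or ATP synthase genes, a grouping made after their values were seen. The share of such symbols over all genes, or among genes just below Ucp1 in WT, was not counted. The 11 of 20 therefore has no background share and only describes these genes. The 11 were Cox7a1, Cox4i1, Atp5e, Uqcrq, Ndufa4, Cox6b1, Cox6c, Atp5j2, Uqcr10, Ndufb9 and Cox8a. The other 9 by symbol were Car3, Fth1, Gnas, Gpx3, Cidea, 2010107E04Rik, Cfd, Etfb and Mir3064. The split rests on the symbol alone, so a gene of the same complexes under another name would fall among these 9. By the same first letters of the symbol, 7 of the 581 genes that passed Ucp3 were counted, and 8 of the 963 that passed Ucp2. These counts hold assembly factor genes too, such as Ndufaf1 and Ndufaf4. They were also taken at far lower levels, so they are no background for the 11 of 20. In the other direction, the glycerol phosphate dehydrogenase gene Gpd1 was above Ucp1 in WT only. Cox4i1, a subunit of cytochrome oxidase, was at 2972 FPKM in WT, close to Ucp1, and at 4746 FPKM in Null. The ratio of Ucp1 FPKM to Cox4i1 FPKM was 1.01 in WT and 0.524 in Null. Against Atp5b, a large subunit of ATP synthase, the direction was opposite, with a ratio of 0.780 in WT and 0.890 in Null.

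Genes at the level of Ucp1 differed between the pools as a whole. The 46 genes with a mean within 2-fold of that of Ucp1 had a median log2 ratio of 0.57, and 8 of them had a ratio below that of Ucp1. For Ucp2 the median over 3781 genes of like level was -0.01, and for Ucp3 it was 0.07 over 1808 genes. Ucp1 lay 0.85 below the median of its level on the log2 scale, Ucp3 0.59 below and Ucp2 0.42 below. Cytosolic ribosomal protein genes had a median log2 ratio of 0.88, and 61 of 66 were higher in Null by any amount, against 50.6% of all genes. Gapdh, a gene active in every cell, was listed at 3.38 against 0.463 FPKM, so single entries of this table can be poor estimates. Their part in the values of Ucp1, Ucp2 and Ucp3 was not tested.

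The proportions of the 3 mRNAs to each other differed little between the pools. Ucp1 was 122-fold above Ucp2 in WT and 138-fold above it in Null. Ucp1 was 41.3-fold above Ucp3 in WT and 49.2-fold above it in Null. Ucp3 was 2.95-fold above Ucp2 in WT and 2.80-fold above it in Null. Of the summed level of the 3 genes, Ucp1 made up 96.9% in WT and 97.3% in Null, Ucp3 2.35% and 1.98%, and Ucp2 0.794% and 0.706%. The ratio of Ucp1 to Ucp2 in Null was 1.13 times that in WT, and that of Ucp1 to Ucp3 was 1.19 times. Both directions turned with quantile normalization, to log2 differences of -0.33 and -0.17 from 0.18 and 0.25. The ratio of Ucp2 to Ucp3 kept its direction in the settings run, at 0.08 on the log2 scale and at 0.16 with quantile normalization.

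Within the mitochondrial carrier family, Ucp1 was the most abundant of 47 genes in both pools and made up 42.8% of the family's summed FPKM in WT and 42.1% in Null. Ucp3 ranked 12 in WT and 14 in Null in the family, and Ucp2 ranked 21 and 22. The citrate carrier gene Slc25a1 came next after Ucp1 by mean level, at 1068 FPKM in WT against 616 FPKM in Null. A list of 8 carriers close to the uncoupling proteins or known to leak protons was also examined. Of its 7 members with a mean of at least 1 FPKM, 1 was lower by 1.5-fold or more in Null and none was higher. Over all genes 6.75% were lower and 7.87% higher by that fold. The median log2 ratio of the list was -0.02. The lower one was the dicarboxylate carrier gene Slc25a10, at 25.2 and 15.6 FPKM (-0.66). The ADP/ATP carrier genes Slc25a4, at 665 and 696 FPKM, and Slc25a5, at 193 and 207 FPKM, differed little, as did the oxoglutarate carrier gene Slc25a11, at 142 and 144 FPKM. Slc25a14, Slc25a27 and Slc25a30, the brain- and kidney-type relatives of the uncoupling proteins, were between 0.977 and 2.36 FPKM. Slc25a31, the ADP/ATP carrier of the testis, was at 0.121 FPKM in WT against 0.190 FPKM in Null.

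A chosen list of 24 genes known to act in switching on Ucp1, mainly transcription factors and coactivators, was examined in both pools. Of 24 genes, 23 had a mean of at least 1 FPKM, all but Foxc2. In Null 4 of these were lower by 1.5-fold or more while none was higher, against 6.75% and 7.87% of all genes. The median log2 ratio was -0.07, against 0.01 over all genes. The lower ones were Dio2, an enzyme that makes active thyroid hormone, at 18.6 FPKM in WT against 9.05 FPKM in Null (-0.97), the fatty acid receptor gene Ppara at 71.9 and 41.2 FPKM (-0.79), Irf4 at 6.74 and 3.65 FPKM (-0.74) and the receptor partner gene Rxra at 22.0 and 13.1 FPKM (-0.71). The most abundant members were Cebpa at 264 and 337 FPKM (0.35), Pparg at 233 and 237 FPKM (0.03) and Cebpb at 122 and 120 FPKM (-0.03). Of these, Pparg is the master regulator of fat cells, and Cebpa and Cebpb act with it. Genes that restrain Ucp1 were examined in the same way. Of 10 repressors with a mean of at least 1 FPKM, 1 was lower by 1.5-fold or more and none was higher, with a median of -0.14. The shares over all genes were again 6.75% lower and 7.87% higher. The lower repressor was the corepressor gene Nrip1 at 3.67 and 1.89 FPKM (-0.69). Nr2f2 had the highest ratio (0.51), at 6.11 FPKM in Null, and the most abundant repressors Nr1h3, Nr2f6 and Rb1 were at log2 ratios of -0.07, -0.21 and 0.21. With columns scaled to the same sum 4 of the 10 were lower. That scaling raised the count of lower genes over all genes from 783 to 1621. With a pseudocount of 0.1 FPKM 2 were higher, while the count of higher genes over all genes rose from 913 to 1199. None of the 7 averaging at least 5 FPKM was lower.

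Of the adrenergic pathway upstream of Ucp1, 17 genes were examined. All 17 had a mean of at least 1 FPKM, with 3 lower and none higher by 1.5-fold or more in Null. The shares over all genes were 6.75% lower and 7.87% higher. The median log2 ratio of the list was -0.33. Adrb3, the receptor of fat cells for noradrenaline, was at 211 FPKM in WT against 145 FPKM in Null (-0.54), a difference of the size of that of Ucp3. The adenylyl cyclase gene Adcy3, which makes cAMP, had the lowest ratio, at 31.6 and 17.2 FPKM (-0.84). Adcy6 and the alpha receptor gene Adra1a were lower as well, at -0.67 each. The 2 most abundant members were higher in Null, the stimulatory G protein gene Gnas at 1889 and 2757 FPKM (0.55, the highest ratio) and the protein kinase A subunit gene Prkar2b at 485 and 579 FPKM (0.26). Scaled to the same sum, 7 of the 17 genes were lower by 1.5-fold or more. That scaling also raised the count of lower genes over all genes from 783 to 1621, so the 6.75% is not its background.

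Fatty acids are both the fuel and the activator of Ucp1. Of 18 genes that supply and burn them, 1 was higher and 2 were lower in Null by at least 1.5-fold. The shares over all genes were 7.87% higher and 6.75% lower, and the list median was -0.15. The most abundant, the fatty acid carrier gene Fabp4, was at 27294 FPKM in WT against 34679 FPKM in Null (0.35), and the dehydrogenase genes Acadl and Acadvl had ratios of 0.03 and -0.34. Gpihbp1, which holds lipoprotein lipase on the capillary wall, was the higher one at 131 and 290 FPKM (1.14). The lower ones were the acyl-CoA synthetase genes Acsl5 at 229 and 120 FPKM (-0.92) and Acsl1 at 630 and 369 FPKM (-0.77). The count of lower genes was 5 with quantile normalization and 4 with equal column sums, where the list medians were -0.37 and -0.36. Over all genes 811 and 1621 were lower in those settings, against 783 as reported.

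Heat can also be made without Ucp1, by creatine cycling and by calcium pumping. Of 13 genes of these cycles and related routes, 11 had a mean of at least 1 FPKM. In Null 5 of these were at least 1.5-fold lower and 1 higher, against 6.75% and 7.87% of all genes. Their median log2 ratio was -0.40. The calcium pump gene Atp2a1 had the lowest ratio, at 210 FPKM in WT against 90.6 FPKM in Null (-1.21), and Atp2a2 was at 72.3 and 38.6 FPKM (-0.89). The calcium channel gene Ryr1 (-1.07) and the pump regulator gene Sln (-0.79) were lower with them. Of the creatine kinases, mitochondrial Ckmt2 was at 47.2 and 22.1 FPKM (-1.06), cytosolic Ckb was at 6.74 and 13.9 FPKM (0.95), and Ckmt1 was listed at 0 in both. Atp2a1, Ryr1, Sln and Ckmt2 are also genes of skeletal muscle, and Atp2a1 is in the list of 14 muscle markers as well.

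Because Ucp3 is expressed in muscle and Ucp2 in immune cells, markers of these cells were set beside them. In bulk tissue, fewer cells of a type and less RNA per cell cannot be told apart. Of 14 markers of skeletal muscle fibres, 9 were lower by 1.5-fold or more in Null and none was higher. Over all genes the shares were 6.75% and 7.87%. The median log2 ratio of the markers was -0.73 against -0.52 for Ucp3. Their summed level was 4464 FPKM in WT against 3124 FPKM in Null, 70.0% of WT, where Ucp3 was at 69.1%. None was at 0. By the mean of the 2 pools the most abundant were Tnni2 (655 and 472 FPKM), Tnnt3 (596 and 418 FPKM) and Mylpf (481 and 513 FPKM). The actin gene Acta1, second in WT, was at 647 and 320 FPKM (-1.01), and Myh2 had the lowest ratio (-1.86). The part of muscle fibres in the Ucp3 value was not tested.

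Macrophage markers had a median ratio above 0, while that of Ucp2 was below 0. Of 12 macrophage markers, 5 were higher in Null by 1.5-fold or more and none was lower, against 7.87% and 6.75% of all genes. The summed level of these markers was 175 FPKM in WT against 250 FPKM in Null, with none at 0. Their median log2 ratio was 0.40, against -0.43 for Ucp2, and the receptor gene Csf1r was at -0.01. Scaled to the same sum, 3 of the 12 were higher by 1.5-fold or more. Over all genes that scaling lowered the count of higher genes from 913 to 469. The 10 lymphocyte markers summed to 18.6 FPKM in WT and to 269% of that in Null, with none at 0. The filter kept 3 of them, Cd52, Coro1a and Cd79b, and all 3 were higher by 1.5-fold or more. Cd79b, at 0.356 FPKM in WT against 1.97 FPKM in Null, was kept only through its Null value. Its direction was therefore fixed by the filter and adds nothing to the count. Cd52 (11.8 and 33.6 FPKM) and Coro1a (4.92 and 9.67 FPKM) were above 1 FPKM in both pools. The 8 neutrophil markers summed to 3.60 and 17.9 FPKM, with 3 at 0 in WT and 2 at 0 in Null. Only 2 of these, S100a8 and S100a9, averaged at least 1 FPKM, and both were higher by 1.5-fold or more. The 8 red cell markers summed to 158 and 469 FPKM, and the 4 of them averaging at least 1 FPKM were higher by 1.5-fold or more. For the lymphocyte, neutrophil and red cell lists too, the share over all genes was 7.87% higher. The filter left out 7 lymphocyte, 6 neutrophil and 4 red cell markers, so these counts cover few genes. The part of immune cells in the Ucp2 value was not tested. The 8 endothelial markers summed to 277 and 354 FPKM, with a median of 0.28, and the 7 epithelial markers to 0.409 and 1.06 FPKM, with Krt14 at 0 in both.

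Both pools carried the markers of brown fat. All 12 markers other than Ucp1 averaged at least 1 FPKM, with 2 higher and 3 lower by 1.5-fold or more in Null. The shares over all genes were 7.87% higher and 6.75% lower. The median log2 ratio of the markers was -0.05. Cidea, a lipid droplet protein of brown fat, was at 2615 FPKM in WT against 2717 FPKM in Null, and the ratio of Ucp1 to Cidea was 1.15 in WT and 0.915 in Null. The higher ones were the cytochrome oxidase genes Cox7a1 (2634 and 5343 FPKM) and Cox8b (6407 and 11163 FPKM). Elovl3, Dio2 and the proton channel gene Otop1 were the lower ones, with Elovl3 lowest at 88.3 and 17.5 FPKM (-2.27). The count of higher markers was 4 with a pseudocount of 0.1 FPKM and 1 with quantile normalization. Over all genes 1199 and 844 were higher in those settings, against 913 as reported. Of the 7 white fat markers, 6 had a mean of at least 1 FPKM, with Retn higher (0.66) and Lep lower (-0.59) by 1.5-fold or more and a median of -0.02. Retn did not reach 1.5-fold with quantile normalization or equal column sums. Prdm16, Ppargc1a, Ebf2 and Dio2 stand in both the brown fat and the activator list.

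**Figure D5:**
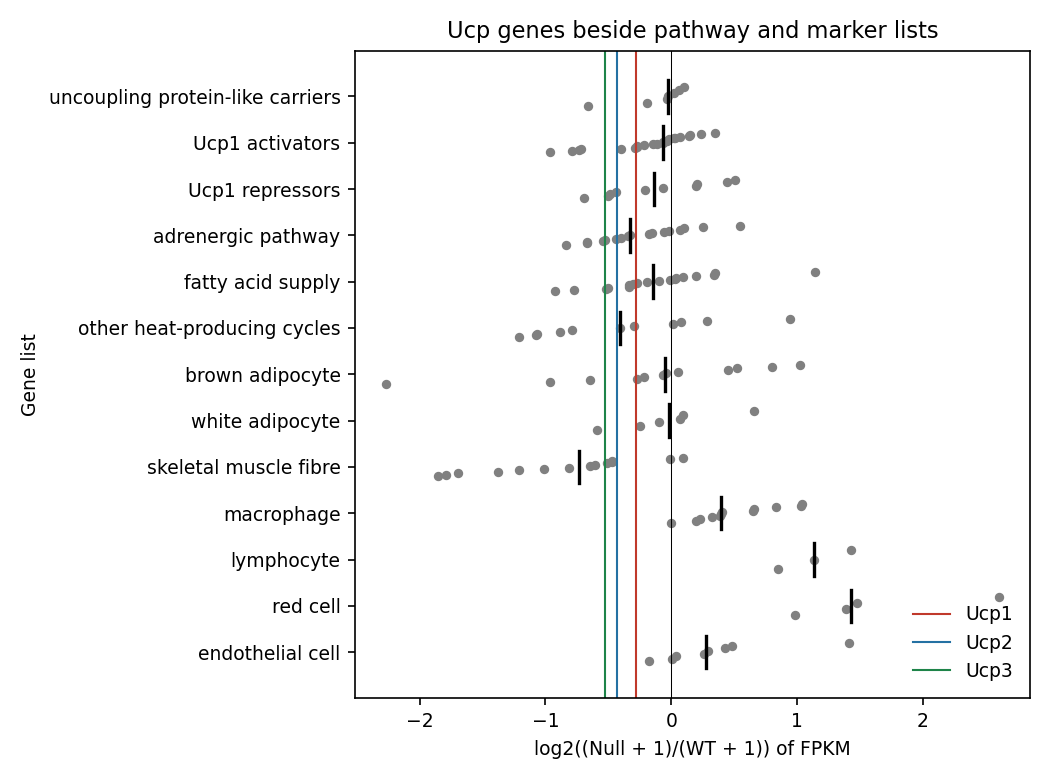
The log2 ratio of Null to WT (horizontal axis) of each gene with a mean of at least 1 FPKM, by gene list (vertical axis), for lists with at least 3 such genes. Points are genes, black bars are list medians, and coloured lines are Ucp1 (-0.28), Ucp2 (-0.43) and Ucp3 (-0.52). Muscle fibre genes have a median to the left of all 3 lines and macrophage genes a median to the right of 0.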

How the data were processed

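Per the submitters' processing notes, reads were handled with TopHat, BWA, CASAVA, DESeq and edgeR on build mm9; their roles, versions and the annotation are not stated. mRNA levels were deposited by the authors as FPKM, 1 column per genotype per the file headers. Whether 3 libraries were pooled or averaged is not stated, and their depth is unknown. The microRNA signal is headed RPM per the file headers, but the 386 deposited values sum to 1559381 in WT and 1578515 in Null, so they are not shares of listed reads. The authors' deposited ratio (fold), p-value and adjusted p-value columns were not used.

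Differences were computed as log2((Null + 1)/(WT + 1)) of FPKM with Python 3.11.15 and pandas 2.3.3, over 11597 genes averaging at least 1 FPKM, and called at 1.5-fold; the code was tested on simulated data. With 1 value per genotype no test was run. Alternatives were pseudocounts, filters, scalings and quantile normalization. The members and lists were chosen with earlier results of these data known. Named genes were the 3 members, the uncoupling protein-like carriers, in each list the 3 most abundant, the highest and the lowest ratio, genes next in rank, the 5 nearest in level, and the 3 protein-coding neighbours on each side. Others were named after their values were seen, where a count was 5 or fewer, where they stood above Ucp1 in 1 pool only, or as comparisons. A gene of the adrenergic list is not reported here.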

Additional observations from a re-analysis of the deposited data

How the results depend on the processing

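No paired analysis was possible because the file gives 1 combined column per genotype, and leaving out a replicate was not possible for the same reason. Subtracting a median by transcript length was not run, since no length table was used. Ucp1, Ucp2 and Ucp3 were lower in Null under each of the 6 alternatives tried. Most of these could not have turned the direction. A pseudocount never does, and equal column sums lower every Null value against WT. Scaling by the median gene ratio left Ucp1 at -0.285. The direction was open only with quantile normalization and with subtraction of the median of genes of like level. The ratios differed by 0.1 or more on the log2 scale with equal column sums (Ucp1 -0.49, Ucp2 -0.64, Ucp3 -0.74), and for Ucp1 also with quantile normalization (-0.80) and after subtracting the median of genes of like level (-0.85), an alternative chosen after seeing the data. After that subtraction Ucp3 was at -0.59, just past 1.5-fold. With quantile normalization the ratio of Ucp1 to Ucp2 turned to -0.33 and that of Ucp1 to Ucp3 to -0.17; the cause was not tested. Equal sums gave 469 genes higher and 1621 lower by 1.5-fold or more, by construction, since they lower every Null value against WT. The other 37 of 46 values moved by less than 0.1, or for ranks and counts by less than 1.5-fold. Of 65 list medians under the alternatives, 22 moved by 0.1 or more. The sign changed in 2, both of the uncoupling protein-like carriers, from -0.02 to 0.04 with a mean of at least 5 FPKM and to 0.00058 with no filter. The mRNA depth is not known, so no counting error can be given.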

Other observations

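The genes nearest to each member in level over the 2 pools, by distance in log2(FPKM + 1), were of mixed kinds. For Ucp1 they were Aldoa (3205 FPKM in WT against 2569 in Null), Cidea, Gpd1 (3615 and 2296 FPKM), Atp5b (3868 and 2794 FPKM) and the ferritin gene Fth1 (2475 and 3074 FPKM). For Ucp2 they were Kifc3, Mto1, Ccdc91, Ap1b1 and Map4k4, at 24.3 to 24.9 FPKM in WT against 17.8 to 18.5 FPKM in Null. For Ucp3 they were Uba1, Flot2, Slc24a3, Ppp2r1b and Wbp2, at 70.1 to 74.5 FPKM in WT against 47.5 to 53.4 FPKM in Null. With only 2 values per gene, such closeness is a description of level.

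Ucp2 and Ucp3 lie next to each other on mouse chromosome 7, and Ucp1 lies on chromosome 8 (RefSeq, GRCm38.p6). On the Ucp3 side of the pair, C2cd3 was at 3.89 FPKM in WT against 2.28 FPKM in Null (log2 ratio -0.58) and Ppme1 at 20.8 and 15.6 FPKM (-0.40), while P4ha3 was at 0.0466 and 0.0522 FPKM. On the Ucp2 side, Dnajb13 was at 0.611 and 0.821 FPKM, Coa4, listed as Chchd8, at 11.3 and 16.0 FPKM (0.47), and Mrpl48 at 33.1 and 41.1 FPKM (0.30). Around Ucp1, Tbc1d9 was at 1.40 and 1.06 FPKM (-0.22), Rnf150 at 5.60 and 4.66 FPKM (-0.22), Zfp330 at 10.5 and 12.2 FPKM (0.21) and Elmod2 at 12.1 and 13.4 FPKM (0.13). Clgn and Mgat4d, the latter listed as 4933434I20Rik, were under 0.03 FPKM in both pools. The high level of Ucp1 was thus not shared by the genes beside it.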
